A study of Mus musculus with 8 samples.

Results

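Polycomb repressive complex 2 (PRC2) was followed through the transcripts of 10 of its subunit genes in mouse embryonic stem cells. The genes were Ezh1, Ezh2, Eed, Suz12, Rbbp4, Mtf2, Phf1, Phf19, Jarid2 and Aebp2, chosen by name, and a probe was assigned to a gene if the RefSeq accession in the scanner file matched that gene's symbol. All 10 genes were on the array, with 16 probes between them, and all 10 were among the 22687 genes and unnamed features that were bright enough to test. Of those features, 14493 carried a gene symbol.

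PRC2 is the enzyme complex that methylates histone H3 on lysine 27, the mark of silent developmental genes. Its catalytic subunit is Ezh2 or Ezh1, and the enzyme works only together with Eed, which binds the finished mark, and Suz12, the scaffold, with the histone-binding protein Rbbp4 at their side. Accessory subunits divide the complex into alternative forms: a form with a Polycomb-like protein (Phf1, Mtf2 or Phf19) and a form with Jarid2 and Aebp2. Embryonic stem cells that lack the core subunits keep renewing themselves but differentiate poorly.

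Agilent arrays of 1 colour measured the RNA of 8 samples in 4 groups of 2, which the study's design text calls biological replicates. Cells of every group, the untreated ones included, were cultured with LIF, a cytokine that holds embryonic stem cells undifferentiated, and with PD173074, which inhibits FGF receptors, at 250 nM. They comprised cells without further treatment (0h, called untreated), cells given 250 nM 4OHT for 8 h (8h), cells given 4OHT for 10 h (10h), and cells given 4OHT for 8 h followed by 1 µM PD0325901, which blocks the kinase MEK, for 2 h (8h-2h). 4OHT (4-hydroxytamoxifen) is used to activate proteins that carry a modified oestrogen receptor domain. Which protein that is in these cells, the name of the cell line, and whether 4OHT remained during MEK inhibition are not given in the sources used here. The sample titles carry the words Pulse-Chase. In the 8h-2h group PD0325901 and any change in 4OHT exposure cannot be told apart. The series title points to Erk, the kinase downstream of MEK, so the comparisons ask which transcripts followed 4OHT and which of them moved back once MEK was blocked.

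On these arrays 51.0% to 63.7% of the non-control spots were well above background, and the share was higher on every array of replicate 1 (62.2% at least) than on any of replicate 2 (53.0% at most). The 10 embryonic stem cell markers examined, among them Pou5f1, Sox2 and Zfp42, were well above background on all 8 arrays, with a summed signal between 268000 and 356000. Of 9 fibroblast markers 3 to 6 were above background on an array, with a summed signal of 942 and 1430 in untreated cells and 4610 to 13600 in the other groups. The sum and the other markers went apart: Thy1 ranged from 0.70 to 5.35 and was called higher at 10 h (3.62), while Col1a1 (-0.58) and Pdgfrb (-2.33) were called lower there and the median of the 4 fibroblast markers tested was -0.52. Col1a1, Col1a2 and Thy1 were above background on all 8 arrays and Pdgfrb on 7. Col3a1 was so on 2 arrays, Dcn and Postn on 1, and Lum and Twist2 on 0. Of 10 primitive endoderm markers 7 to 10 were above background, with a median level of -1.05 to -0.88 for replicate 1 and -2.57 to -2.31 for replicate 2. Their summed signal was 88500 to 123000, and Sparc (7.76 to 8.28) and Lama1 (4.71 to 6.38) lay far above that median. The part of these markers in the results below was not tested, and in RNA from whole cultures fewer cells of a type cannot be told apart from less RNA per cell.

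Levels are log2 processed signals relative to the 75th percentile of the array, a change is the log2 level of a group mean minus that of the group it is compared with ± its standard error from limma, and a gene is called when its Benjamini-Hochberg adjusted p over all features tested is under 0.05. A probe's level depends on its sequence, so levels are compared between arrays and never between genes. Each of the 10 reported probes was well above background on all 8 arrays, and every group mean rests on n = 2.

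After 8 h of 4OHT, Jarid2, Phf19 and Eed were called higher and 0 members were called lower. Across all features in that comparison 21.7% were called, 10.3% higher and 11.5% lower. The median change was 0.16 over the 10 members and -0.04 over all features. After 10 h the same comparison with untreated cells called 4 members higher (Jarid2, Phf19, Eed and Ezh1) and again 0 lower, against 27.9% of all features called, 13.1% higher and 14.8% lower, with medians of 0.24 for the members and -0.05 for all features. Centring each array on its median, in place of its 75th percentile, turned the split of called features from 2329 higher and 2602 lower to 3038 and 1511 at 8 h, and from 2977 and 3353 to 4859 and 1851 at 10 h. That scaling moved the median of all features at 10 h from -0.05 to 0.14, and the median-centred fit called 7 members there. Between 8 h and 10 h of 4OHT limma called 0 members and 0 features (0% in either direction, 0% higher and 0% lower). There, 1499 features (6.61%) and 0 of the 10 members had an unadjusted limma p under 0.05, and for 10 genes that count is near the share. Against untreated cells 6 members had such a p at 8 h (35.7% of features) and 6 at 10 h (41.2%). After PD0325901 there were 3 against 10 h (21.2%), 4 against 8 h (22%) and 3 against untreated cells (33.1%).

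**Figure D1:**
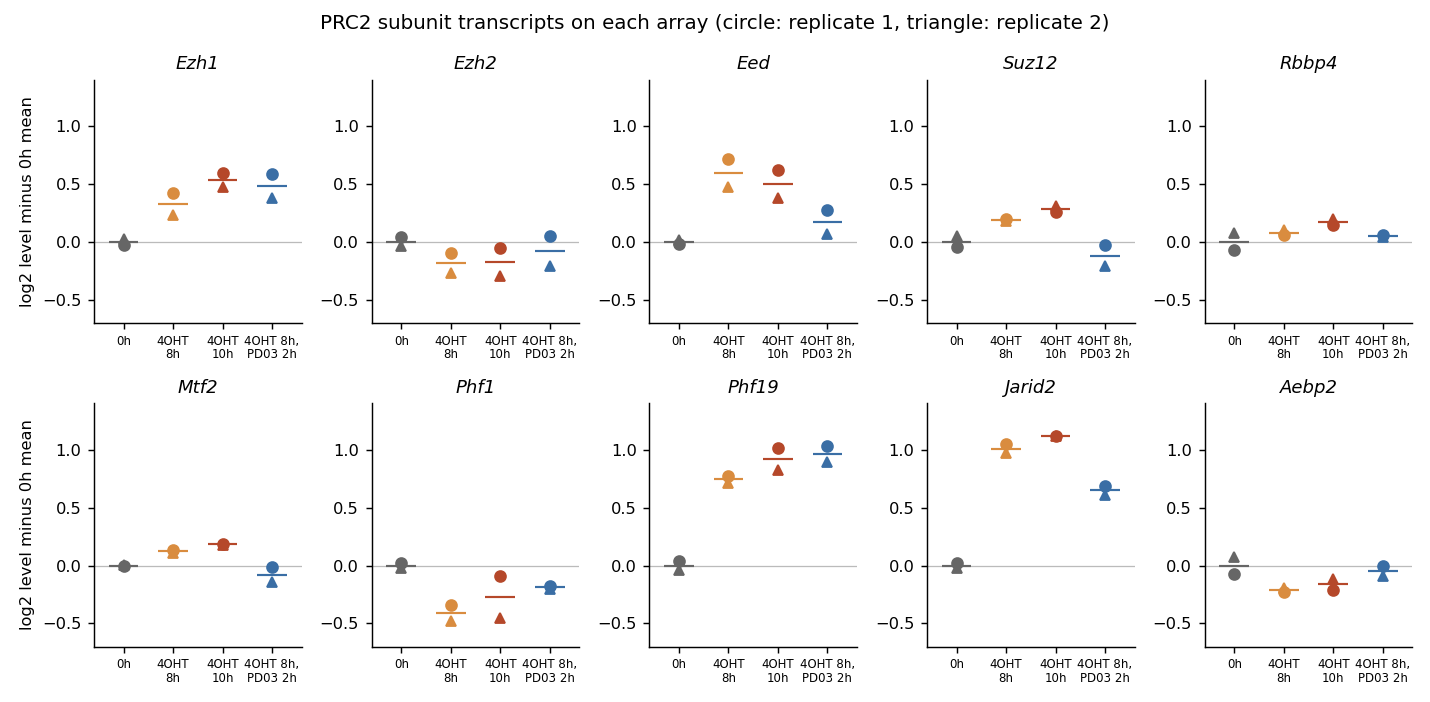
Log2 level of each PRC2 subunit transcript on each of the 8 arrays, minus the mean of the untreated (0h) arrays; circles are replicate 1, triangles replicate 2, horizontal bars the group means, and PD03 stands for PD0325901. Jarid2 and Phf19 were called higher than untreated cells in all 3 treated groups, and Jarid2 alone of the subunits was called lower after PD0325901 (-0.47 against 10 h).

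Jarid2 is a DNA-binding subunit without demethylase activity that helps to bring PRC2 to its target genes. It showed the largest rise among the 10 subunits in both comparisons of 4OHT with untreated cells. Its level was 3.50 and 3.46 in untreated cells, 4.53 and 4.45 after 8 h of 4OHT, 4.596 and 4.59 after 10 h, and 4.17 and 4.09 after PD0325901. The arrays of the 4 groups did not overlap, in the order 0h, 8h-2h, 8h, 10h from low to high. The rise was 1.01 ± 0.07 at 8 h (2.02-fold, limma adjusted p = 0.000836) and 1.12 ± 0.07 at 10 h (2.17-fold, adjusted p = 0.000479). Of all features, 4.8% rose more at 8 h and 4.58% at 10 h. The neighbouring 8 h and 10 h levels did not differ beyond their error (0.11 ± 0.07, adjusted p = 0.846).

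After 2 h of PD0325901, Jarid2 had changed by -0.47 ± 0.07 from 10 h of 4OHT (1.38-fold lower, limma adjusted p = 0.0216). Against the 8 h cells, from which the inhibitor was started, the change was -0.36 ± 0.07 (adjusted p = 0.0419). It still lay 0.65 ± 0.07 above untreated cells (adjusted p = 0.00516), so part of the rise remained after 2 h. The 3 rises against untreated cells were called under all 18 alternative settings. The fall against 10 h lost its call under 9 of the 18, 6 of them the removal of a single array (either replicate of 8h, 10h or 8h-2h, adjusted p up to 0.123). The fall against 8 h lost its call under 12 of the 18, among them the removal of any 1 of the 8 arrays (adjusted p 0.0714 to 0.196). Jarid2 had a single probe.

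RefSeq gives 2 start sites for Jarid2 in the table used here. The 250 bases before the first (mouse GRCm38.p6, chr13:44730524-44730773, plus strand) are shown since this is the subunit with the largest rise, 5′ to 3′ with each CG dinucleotide in capitals, the sequence feature of the CpG islands where PRC2 gathers.
Jarid2: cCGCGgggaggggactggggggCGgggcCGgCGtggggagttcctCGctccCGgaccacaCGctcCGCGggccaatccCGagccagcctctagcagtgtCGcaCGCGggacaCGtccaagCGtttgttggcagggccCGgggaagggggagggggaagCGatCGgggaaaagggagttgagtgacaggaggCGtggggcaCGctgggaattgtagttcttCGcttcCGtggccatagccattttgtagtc
This stretch holds 23 CG dinucleotides, against a median of 6 over the same stretch of all 32851 start sites in the table.

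Aebp2, a zinc finger protein that stabilises the complex and is found beside Jarid2, read slightly lower with 4OHT, without a call. Its level was 1.48 and 1.64 in untreated cells, 1.33 and 1.36 at 8 h, 1.35 and 1.44 at 10 h, and 1.56 and 1.47 after PD0325901. The 8h and 10h arrays lay below the untreated ones, with changes of -0.22 ± 0.09 at 8 h (limma adjusted p = 0.139) and -0.16 ± 0.09 at 10 h (adjusted p = 0.213). The value at 10 h changed sign, to 0.03, under median centring. A dimmer probe for another transcript of the gene read -0.24 ± 0.08 and -0.27 ± 0.08 in the same comparisons, not called either (adjusted p = 0.0869 and 0.0518 among all probes).

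Among the Polycomb-like subunits, which bind unmethylated CG-rich DNA and histone H3 methylated on lysine 36, Phf19 rose, while Mtf2 and Phf1 were not called. Phf19 measured 0.005 and -0.07 in untreated cells, 0.74 and 0.68 at 8 h of 4OHT, 0.98 and 0.79 at 10 h, and 1.00 and 0.86 after PD0325901. All 6 treated arrays lay above both untreated arrays, and the 10h and 8h-2h arrays overlapped. The rise was 0.75 ± 0.10 at 8 h (1.68-fold, adjusted p = 0.00517), 0.92 ± 0.10 at 10 h (1.89-fold, adjusted p = 0.0022) and 0.97 ± 0.10 after PD0325901 (1.95-fold, adjusted p = 0.00417), each called under all 18 alternative settings. After PD0325901 Phf19 read 0.05 ± 0.10 against 10 h (adjusted p = 0.827), with a 95% interval of -0.19 to 0.29. Phf19 too had a single probe.

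The 250 bases before the start site of Phf19 (GRCm38.p6, chr2:34913977-34914226, minus strand) are shown as those of the other accessory subunit that rose.
Phf19: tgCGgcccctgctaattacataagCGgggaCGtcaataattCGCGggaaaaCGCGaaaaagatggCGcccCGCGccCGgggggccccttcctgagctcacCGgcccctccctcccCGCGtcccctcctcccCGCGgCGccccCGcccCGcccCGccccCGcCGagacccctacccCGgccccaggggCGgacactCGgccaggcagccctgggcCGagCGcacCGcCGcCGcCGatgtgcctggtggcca
It holds 31 CG dinucleotides, and 75.2% of its bases are G or C.

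Mtf2, the Polycomb-like protein through which PRC2 is recruited to CpG islands in embryonic stem cells, measured 5.14 on both untreated arrays, 5.27 and 5.25 at 8 h, 5.33 and 5.32 at 10 h, and 5.13 and 4.999 after PD0325901. Its arrays were closely spaced within the 0h, 8h and 10h groups and the groups did not overlap, yet the largest change with 4OHT was 0.18 ± 0.07 at 10 h (limma adjusted p = 0.112). After PD0325901 it read -0.26 ± 0.07 against 10 h (adjusted p = 0.108). A second, dim probe read -0.23 ± 0.11 at 10 h against untreated cells, and the mean of both probes there was -0.02. Phf1 was dim, at -1.10 and -1.14 in untreated cells, -1.46 and -1.60 at 8 h, -1.21 and -1.57 at 10 h and -1.29 and -1.33 after PD0325901. It read -0.41 ± 0.13 at 8 h (adjusted p = 0.0805) and -0.27 ± 0.13 at 10 h (adjusted p = 0.176). Its second probe was above background on 5 of the 8 arrays and read -0.55 ± 0.42 at 8 h.

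**Figure D2:**
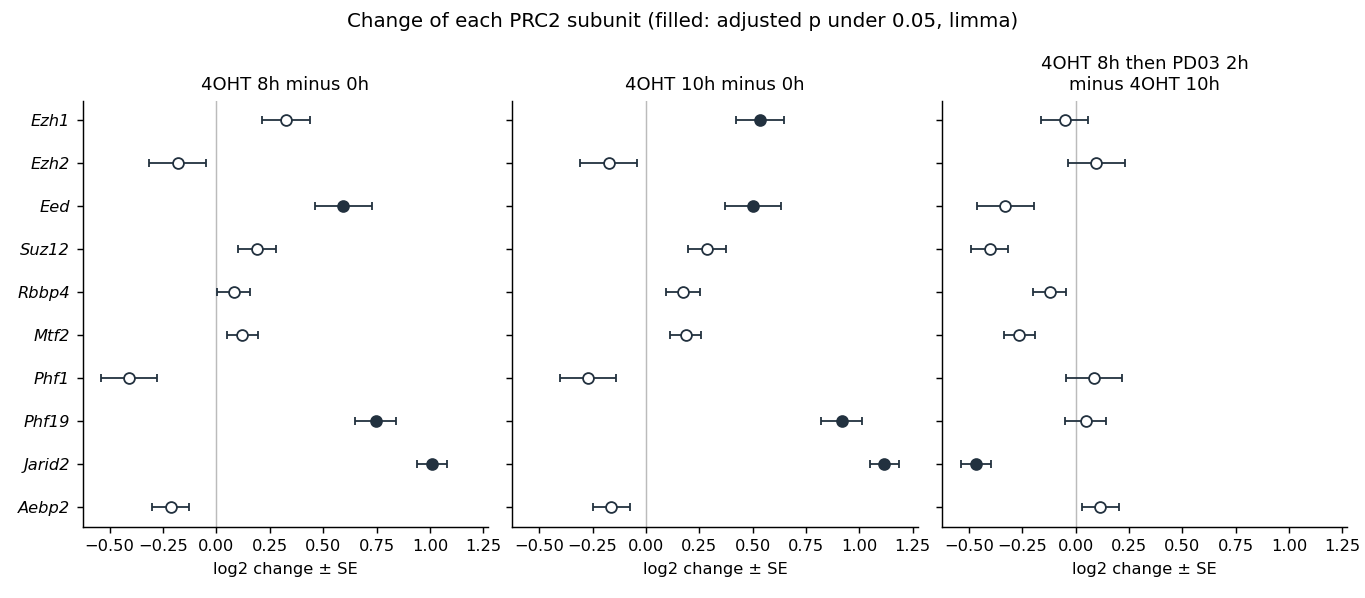
Log2 change ± SE of each subunit at 8 h and at 10 h of 4OHT against untreated cells, and after PD0325901 (PD03) against 10 h of 4OHT; filled points have an adjusted p under 0.05 (limma). The called points are Jarid2, Phf19 and Eed at 8 h, the same 3 and Ezh1 at 10 h, and Jarid2 alone after PD0325901.

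Of the alternative catalytic subunits, Ezh1 rose with 4OHT and Ezh2 was not called. Ezh1, which is the weaker methyltransferase and the one that predominates in non-dividing cells, measured 3.21 and 3.26 in untreated cells, 3.66 and 3.47 at 8 h, 3.83 and 3.71 at 10 h, and 3.82 and 3.62 after PD0325901. Every treated array exceeded both untreated arrays. The change was 0.33 ± 0.11 at 8 h (limma adjusted p = 0.0959) and 0.53 ± 0.11 at 10 h (1.45-fold, adjusted p = 0.0195). After PD0325901 Ezh1 stood 0.48 ± 0.11 above untreated cells (adjusted p = 0.041) and -0.05 ± 0.11 from its 10 h level (adjusted p = 0.836, 95% interval -0.33 to 0.23).

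Ezh1 was the only called subunit with several probes, 3 of them for 1 transcript accession. At 10 h the brightest read 0.53 ± 0.11, the middle one 0.50 ± 0.09 and the dimmest 1.64 ± 0.29, each called when all probes were tested singly (limma adjusted p = 0.0214, 0.0135 and 0.0124), and their mean gave 0.89. At 8 h they read 0.33, 0.27 and 0.76, with 0 of the 3 called. The 10 h call was lost under 6 of the 18 alternative settings. They were normexp background correction (0.40, limma adjusted p = 0.0855), no filter on dim probes (adjusted p = 0.072), and removal of either 0h or either 10h array (0.47 to 0.60). The call after PD0325901 was lost under 11 of the 18. They were removal of any 1 of the 8 arrays (0.38 to 0.59), normexp (0.24, adjusted p = 0.304), no filter (adjusted p = 0.141) and only the 2 groups compared (adjusted p = 0.102).

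Ezh2, the main H3 lysine 27 methyltransferase of dividing cells, measured 3.97 and 3.89 in untreated cells, 3.84 and 3.66 at 8 h, 3.87 and 3.64 at 10 h, and 3.98 and 3.72 after PD0325901. The treated arrays lay below the untreated ones at 8 h and 10 h but overlapped them after PD0325901. The changes were -0.18 ± 0.13 at 8 h (limma adjusted p = 0.387, 95% interval -0.51 to 0.15) and -0.18 ± 0.13 at 10 h (adjusted p = 0.37). The 10 h value became 0.01 under median centring. A fall of up to 0.51 and a rise of up to 0.15 are both within the interval at 8 h, so the precision of 2 arrays a group does not settle its direction.

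The 250 bases before the start sites of the 2 catalytic subunits, of which Ezh1 was called and Ezh2 was not, are given side by side, Ezh1 on GRCm38.p6 at chr11:101226464-101226713 and Ezh2 at chr6:47595031-47595280, both from the minus strand.
Ezh1: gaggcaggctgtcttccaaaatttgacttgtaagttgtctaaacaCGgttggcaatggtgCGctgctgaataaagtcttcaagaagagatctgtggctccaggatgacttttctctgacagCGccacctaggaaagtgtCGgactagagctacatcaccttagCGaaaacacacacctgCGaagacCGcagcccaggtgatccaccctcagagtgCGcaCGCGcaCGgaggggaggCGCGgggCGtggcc
Ezh2: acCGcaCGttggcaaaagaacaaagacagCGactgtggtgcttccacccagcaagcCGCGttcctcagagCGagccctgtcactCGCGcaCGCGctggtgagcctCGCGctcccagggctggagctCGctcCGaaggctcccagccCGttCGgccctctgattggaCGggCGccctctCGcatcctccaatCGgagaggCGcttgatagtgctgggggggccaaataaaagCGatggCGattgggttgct
Ezh1 holds 14 CG dinucleotides in this stretch and Ezh2 holds 23, and G or C make up 55.2% and 63.6% of the bases.

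Short motifs were searched on both strands of the full 300-base windows in the RefSeq table, from 250 bases before to 50 after each start, for all 14 windows of the 10 subunits. An ETS motif (CCGGAAG) was in 0 of the 14 windows and in 8.86% of all 32851 windows, an AP-1 motif (TGANTCA) in 0 and 7.81%, and a CRE (TGACGTCA) in 0 and 1.79%. The E2F motif TTGGCGC was in 2 of the 14, those of Ezh2 and Rbbp4, and in 2.45% of all windows. The E-box CACGTG was in the Rbbp4 window, 1 of the 14, and in 7.15% of all windows. These are matches of letters in 1 window and describe no binding. In the part before the start, 11 of the 14 windows had more CG dinucleotides than the median window.

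Eed, the subunit that reads methylated lysine 27 and stimulates the enzyme, rose with 4OHT, while its non-catalytic partners Suz12 and Rbbp4 were not called. Its level was 6.65 and 6.68 in untreated cells, 7.39 and 7.14 at 8 h, 7.28 and 7.05 at 10 h, and 6.94 and 6.73 after PD0325901. The 8h and 10h arrays overlapped each other and lay above all arrays of the other 2 groups, while the 8h-2h arrays lay just above the untreated ones. The rise was 0.60 ± 0.13 at 8 h (1.51-fold, limma adjusted p = 0.0291) and 0.50 ± 0.13 at 10 h (1.41-fold, adjusted p = 0.0406). The call at 8 h was lost under 6 of the 18 alternative settings. They were removal of either 0h or either 8h array (0.47 to 0.72), no filter on dim probes (limma adjusted p = 0.0976) and only the 2 groups compared (0.0612). The call at 10 h was lost under 9 of the 18. They were removal of any array of 0h, 10h or 8h-2h (0.38 to 0.62), quantile normalization (0.35, adjusted p = 0.0802), no filter (0.121) and only the 2 groups (0.066).

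After PD0325901 Eed read -0.33 ± 0.13 against 10 h (adjusted p = 0.236) and -0.42 ± 0.13 against 8 h (adjusted p = 0.139). The value against 8 h passed the threshold under 2 of the 18 alternative settings. Eed was then 0.17 ± 0.13 above untreated cells (adjusted p = 0.424, 95% interval -0.16 to 0.50). Its single probe reached 56300 signal units, and 0 spots were saturated on any array.

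Suz12, the scaffold on which the accessory subunits dock, measured 3.79 and 3.89 in untreated cells, 4.04 and 4.02 at 8 h, 4.10 and 4.15 at 10 h, and 3.81 and 3.63 after PD0325901. Its arrays at 8 h and 10 h lay above those of untreated cells and of the inhibitor group, which overlapped each other. The change was 0.19 ± 0.09 at 8 h (limma adjusted p = 0.186) and 0.28 ± 0.09 at 10 h (adjusted p = 0.0608), and after PD0325901 it read -0.40 ± 0.09 against 10 h (adjusted p = 0.0597). The last value passed the threshold under 5 of the 18 alternative settings and the 10 h value under 4 of the 18.

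Rbbp4, a histone chaperone shared with several other chromatin complexes, was between 6.44 and 6.71 on the 8 arrays. It read 0.08 ± 0.08 at 8 h (adjusted p = 0.512), where its arrays overlapped the untreated ones, and 0.17 ± 0.08 at 10 h (adjusted p = 0.154). A second probe, with signals of 203 to 422, read -0.52 ± 0.23 and -0.49 ± 0.23, not called. The probes disagreed in sign, so the gene's direction rests on which is used.

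**Figure D3:**
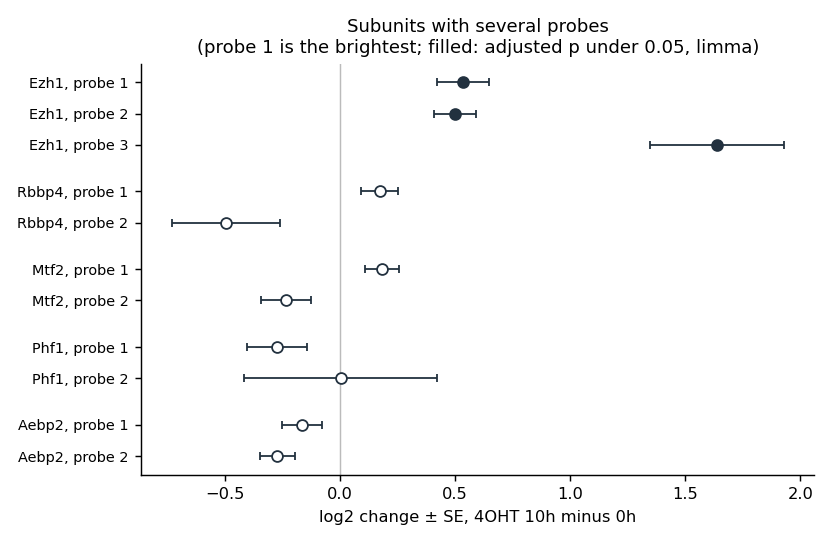
Log2 change ± SE at 10 h of 4OHT against untreated cells for each probe of the 5 subunits with more than 1 probe, where probe 1 is the brightest and filled points have an adjusted p under 0.05 among all probes (limma). The 3 probes of Ezh1 all read higher, while the probes of Rbbp4 and of Mtf2 read in opposite directions.

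Against 10 h of 4OHT, 1 of the 10 subunits was called after PD0325901, Jarid2, which was lower, and 0 were called higher. Among all features 6.12% were called in this comparison, 3.24% higher and 2.87% lower. The median change was -0.09 over the members and -0.04 over all features. Against 8 h of 4OHT the result was the same gene, with 6.52% of all features called, 3.4% higher and 3.11% lower. Median centring changed the split at 10 h from 736 higher and 652 lower to 490 and 683. In the inhibitor group 3 of the 10 embryonic stem cell markers were called lower than at 10 h (Sox2, Utf1 and Dppa4) and 0 higher. Utf1 and Dppa4 had been called higher than untreated at 10 h (1.00 and 0.95) and still were in the inhibitor group (0.44 and 0.50). Fbxo15 had been called lower than untreated at 10 h (-1.40) and was not called in the inhibitor group (-0.69). Against untreated cells 2 of the 10 markers were called higher in the inhibitor group and 2 lower, Sox2 (-0.59) and Tdgf1 (-0.51).

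Compared with untreated cells, the inhibitor group had Jarid2, Phf19 and Ezh1 called higher and 0 members lower, where 15.9% of all features were called, 7.06% higher and 8.8% lower. Median centring turned that split from 1601 higher and 1996 lower to 1871 and 915. The members' median change was 0.002 against -0.07 for all features. The comparisons share arrays (10h or 0h), so they are not independent of each other.

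The changes in the subunits' proportions were read within arrays, as the difference between the log2 levels of 2 genes on the same array, which the scaling of the array cannot move. The pairs were chosen after the values were seen, so these are descriptions without a test. They were taken from alternative subunits, except Jarid2 minus Suz12, which sets an accessory subunit against the scaffold. The difference Ezh1 minus Ezh2 exceeded its untreated mean by 0.51 at 8 h, 0.71 at 10 h and 0.56 after PD0325901, and all 6 treated arrays lay above both untreated arrays. Jarid2 minus Mtf2, 1 subunit from each form of the complex, moved by 0.89, 0.93 and 0.73 in the same order. Phf19 minus Phf1, a pair of Polycomb-like proteins, moved by 1.16, 1.19 and 1.15. Jarid2 minus Suz12 moved by 0.82, 0.83 and 0.77, so the accessory subunit gained on the scaffold in each treated group. Such differences show unequal change and not which of the 2 genes moved.

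**Figure D4:**
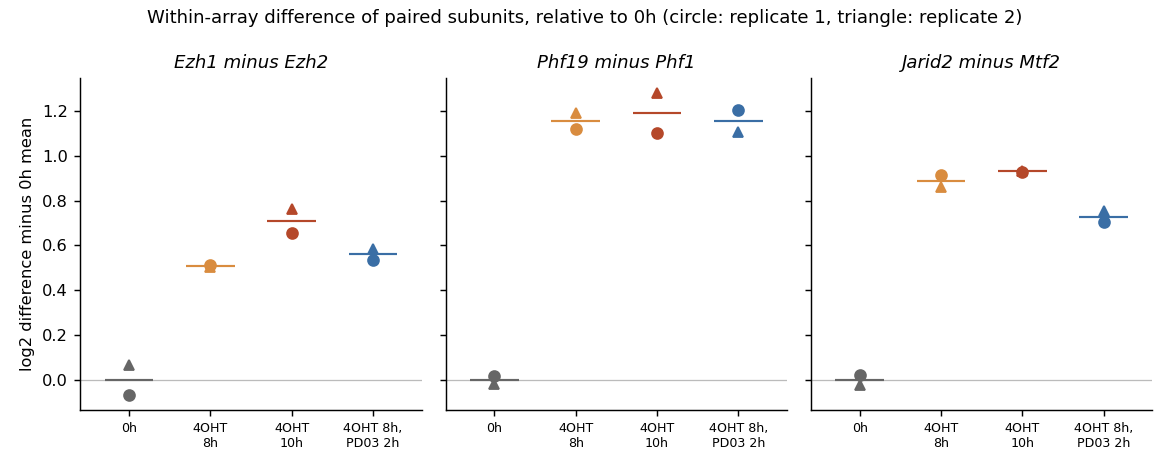
Difference between the log2 levels of 2 subunits on the same array, minus the mean of that difference in untreated (0h) cells; circles are replicate 1, triangles replicate 2, bars group means, and PD03 is PD0325901. Each treated array lies above the untreated ones, with group means of 0.51 to 0.71 for Ezh1 minus Ezh2, 1.15 to 1.19 for Phf19 minus Phf1 and 0.73 to 0.93 for Jarid2 minus Mtf2.

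The genes with the most similar profiles were found by the root mean square difference of log2 levels over the 8 arrays, each gene centred on its own mean. For Jarid2 the 3 nearest were Ppm1f (0.04), Naf1 (0.06) and Mindy3 (0.07), with changes of 0.94, 1.07 and 1.08 at 8 h and of -0.45, -0.47 and -0.39 after PD0325901 against 10 h. For Ezh1 they were Atf1, Olfr187 and Me1, at distances of 0.05, 0.06 and 0.06. For Ezh2 they were Map4k1, Ktn1 and Sorl1, at 0.03, 0.03 and 0.04. The SD of the member itself over the 8 arrays was 0.44 for Jarid2, 0.22 for Ezh1 and 0.12 for Ezh2, so the last set is close partly through its small range.

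Other genes that act with or against PRC2 were counted from lists, to be read beside the 21.7% of all features called at 8 h (10.3% higher, 11.5% lower) and the 6.12% called after PD0325901 against 10 h (3.24% higher, 2.87% lower). Of 10 further PRC2 cofactors 9 were tested. At 8 h 1 of the 9 was called higher, Cdyl, a chromodomain protein that binds PRC2 (0.32 ± 0.07, limma adjusted p = 0.021), and 0 lower, with a list median of 0.15. After PD0325901 against 10 h, 1 was called lower, Epop, which joins PRC2 to elongin BC (-0.47 ± 0.07, adjusted p = 0.0186), and 0 higher, with a median of -0.06. The call of Cdyl was lost under 6 and that of Epop under 9 of the 18 alternative settings, for Cdyl without any 1 array of 0h or 8h (adjusted p up to 0.112) and for Epop without any 1 array of 8h, 10h or 8h-2h (adjusted p up to 0.121).

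PRC1, the partner complex that reads the PRC2 mark through its chromobox (Cbx) subunits and ubiquitinates histone H2A, had 26 of 28 listed genes tested. At 8 h 3 were called higher and 4 lower, beside 10.3% and 11.5% of all features, with a median of -0.04. Cbx8 fell by 1.38 ± 0.21 (adjusted p = 0.00834) and Bcorl1, a corepressor of variant PRC1, by 0.80 ± 0.10 (adjusted p = 0.00446). E2f6, the DNA-binding factor of a variant PRC1, rose by 1.02 ± 0.10 (adjusted p = 0.0021). Cbx8 was above background on 1 of the 2 arrays at 8 h and on 1 of 2 at 10 h, and its call at 8 h was lost under normexp background correction (-0.31, adjusted p = 0.0512). Bcorl1 read -0.46 under that correction and -0.48 as the mean of its probes, called in both.

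After PD0325901 against 10 h, 4 of the 26 PRC1 genes were called higher, beside 3.24% of all features, and 0 lower, with a median of -0.04. Cbx8 was higher by 2.58 ± 0.21 (adjusted p = 0.00362), Cbx2 by 0.86 ± 0.10 (adjusted p = 0.00917) and Bcorl1 by 0.64 ± 0.10 (adjusted p = 0.0231). Cbx8 and Cbx2 then stood above untreated cells too, by 1.501 and 1.02, both called (adjusted p = 0.00991 and 0.00349). The higher level of Cbx8 was called under all 17 alternative settings that measured it, but since 1 of the 2 arrays at 10 h was not well above background its size is uncertain, and normexp background correction gave 0.99 (adjusted p = 0.00154). The call of Cbx2 was lost under 4 of the 18, including the removal of either 8h-2h array or of 10h replicate 2 (adjusted p up to 0.0672), and that of Bcorl1 under 9, including the mean of its probes (0.35) and the removal of any array of 8h, 10h or 8h-2h (adjusted p up to 0.113).

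Enzymes that oppose or border the PRC2 mark were counted in the same way. Of 4 genes for H3 lysine 27 demethylases and acetyltransferases, the demethylase Kdm6b rose by 0.74 ± 0.10 at 8 h (adjusted p = 0.00527) and the other 3 were not called (list median 0.24). Kdm6b changed by -0.52 ± 0.10 after PD0325901 against 10 h (adjusted p = 0.0398), the 1 call of that list (median -0.27), which was lost under 10 of the 18 alternative settings, including the removal of any array of 0h, 10h or 8h-2h (adjusted p up to 0.186). Of 8 genes of the H2A deubiquitinase PR-DUB, Foxk1 rose by 0.75 ± 0.10 at 8 h (adjusted p = 0.00561), with 0 lower and a list median of -0.15. Foxk1 had the smallest p of that list after PD0325901 (0.27 ± 0.10, adjusted p = 0.204, 0 of 8 called, median 0.19).

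Of 16 tested genes for H3 lysine 4 and lysine 36 methyltransferase complexes, 2 were called higher and 2 lower at 8 h, with a median of -0.04. Wdr5, a core part of the lysine 4 complexes, fell by 0.70 ± 0.12 (adjusted p = 0.0123) and the lysine 36 enzyme Nsd1 by 0.38 ± 0.10 (adjusted p = 0.0461). Setd1b rose by 0.37 ± 0.07 (adjusted p = 0.0189) and Setd2 by 0.41 ± 0.09 (adjusted p = 0.0298). Each of the 4 calls was lost without either 8h array (adjusted p 0.0539 to 0.168) and under 4 to 9 of the 18 alternative settings. Those of Nsd1, Setd1b and Setd2 were also lost without either 0h array, that of Wdr5 without 0h replicate 2, that of Nsd1 without either 8h-2h array or with median centring (-0.25), and that of Setd2 without either 10h array. After PD0325901 limma called 0 of the 16 (median 0.02), and the smallest p was that of Kmt2b (-0.25 ± 0.08, adjusted p = 0.149).

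Of 36 listed developmental genes that PRC2 marks in embryonic stem cells, 27 were bright enough to test. At 8 h 8 were called higher and 3 lower, beside 10.3% and 11.5% of all features, with a median change of 0.26. Some genes entered the fit only through groups where they were bright. Hand1 was above background on 0 untreated arrays, and Hoxb13 on 0 arrays at 8 h and 10 h. The list was also chosen with earlier results known, so its counts, here and after PD0325901, are no test of PRC2 targets as a set. Cdx2, a trophoblast and posterior factor, rose by 6.37 ± 0.43 (adjusted p = 0.000799), and Eomes, a factor of trophoblast and mesendoderm, by 2.00 ± 0.12 (adjusted p = 0.000628). Hand1 rose at least 13.3-fold, from a level not well above background without 4OHT (adjusted p = 0.000206). Hoxb13 was not well above background at 8 h and fell at least 8.35-fold (adjusted p = 0.000153). With normexp background correction, which adds an offset and so shrinks changes of dim probes, the 8 h changes were 1.89 for Hand1, -1.27 for Hoxb13 and 4.55 for Cdx2, all called, so the bounds hold for the processed signal only. They set the measured group against the higher of the lowest detectable signal and the probe's own signal on each array of the dim group.

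After PD0325901 against 10 h, 1 of these 27 genes was called higher and 4 lower, with a median of -0.02. Hoxb13 was at least 8.33-fold higher than at 10 h (adjusted p = 0.00028), or 1.098 on the log2 scale with normexp, and read -0.16 ± 0.11 from untreated cells (adjusted p = 0.351). Msx1 changed by -2.27 ± 0.27 (adjusted p = 0.0108) and Hoxd13 by -1.18 ± 0.17 (adjusted p = 0.0178, or -0.74 with normexp). Eomes changed by -0.96 ± 0.12 (adjusted p = 0.0142). As the mean of its probes Eomes read -0.76 and was not called (limma adjusted p = 0.079). Its call was lost under 7 of the 18 alternative settings. The calls of Hoxd13 and Eomes were lost without any 1 array of 10h or 8h-2h (adjusted p up to 0.0955), and that of Msx1 without 10h replicate 2 (adjusted p = 0.0646).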

How the data were processed

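The 10 genes and all gene lists were chosen with earlier results of these data known. Per the labels' protocols, total RNA was amplified and labelled with an Agilent kit. The processed signal came from Feature Extraction 11.0.1.1, per the file headers, as a background-subtracted intensity without scaling between arrays. Values in the deposited series matrix were the same linear, uncentred intensity within 0.497% (column medians 18.1 to 25.1). The labels name Cy5 and the files a single green channel, which changes no direction.

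Control spots and outlier spots (169 to 249 an array) were left out. Of 55681 non-control probes 27656 (49.7%) matched 1 symbol by RefSeq accession, 0 several and 28025 none. Probe coordinates, on mm9 in the design, are left out. Promoter windows are from RefSeq on GRCm38.p6. Log2 signals minus each array's 75th percentile were fitted with limma 3.58.1 (R 4.3.3) after reading in Python 3.11.15 (numpy 2.4.6, pandas 2.3.3), with a mean per group over 8 arrays (residual degrees of freedom 4, prior 1.71) and two-sided moderated tests. Probes entered the fit (30329 of them) when some group had both arrays well above background, and a gene was represented by its brightest kept probe. Of the other lists, up to 4 called genes with the smallest adjusted p were named in the comparisons of 8h with 0h and 8h-2h with 10h, or the gene with the smallest p where 0 were called. 1 gene that this rule names is not reported here. The fit was tested on simulated data.

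Replicate number is also the row on the slide, and each group has its own slide column, so column and group cannot be told apart. All arrays were on 1 slide scanned on 1 date. The design text calls the samples biological replicates, and the number of arrays limits the precision. Alternatives were the deposited series matrix values, median centring, quantile normalization, normexp background correction, other filters, the mean of a gene's probes, a replicate block, a trended prior, a fit of only the 2 groups compared, and the removal of each array in turn, 18 settings in all where each could be fitted.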

Additional observations from a re-analysis of the deposited data

How the results depend on the processing

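The 6 rises of Jarid2 and Phf19 against untreated cells (8h, 10h and 8h-2h) were called under all 18 alternative settings, and the other 6 of the 12 called changes of the subunits lost their call under at least 1. The count of subunits called at 10 h against untreated cells was 7 with median centring, which added Suz12, Mtf2 and Rbbp4 and called 29.6% of all features. It was 2 with no filter on dim probes, which called 8.94% of all features. The counts after PD0325901 follow with the share of all features called in brackets. Against 10 h the count was 2 with median centring (5.17%), normexp background correction (6.85%), a filter on all 8 arrays (7.54%) or the replicate block (12.4%). It was 3 with an intensity trend in the prior (8.49%). It was 0 with quantile normalization (5.23%), no filter (0.9%) or a fit of only the 2 groups compared (1.44%). Against 8 h it was 2 with normexp (7.87%), the trend (9.17%) or the replicate block (14%). It was 0 with median centring (5.47%), quantile normalization (6.22%), no filter (0.968%) or only the 2 groups (1.43%). With each array left out in turn, the counts ranged from 2 to 4 at 8 h and at 10 h, from 0 to 0 between 8h and 10h, from 0 to 1 after PD0325901 against 10 h, from 0 to 0 against 8 h and from 2 to 2 against untreated cells. In fits without 1 array its group keeps a lone array, assumed to vary like the others.

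Same-numbered arrays deviated together (correlations of 0.287 to 0.356 over the 6 pairs of groups), but the labels give no pairing beyond the number and there are only 2 numbers. With the replicate block 5 subunits were called at 8 h, adding Ezh1 (adjusted p = 0.0448) and Phf1 (adjusted p = 0.0371), and 4, 0 and 3 at 10 h, between 8h and 10h, and after PD0325901 against untreated cells. After PD0325901 it added Suz12 against 10 h (adjusted p = 0.05 after rounding) and Eed against 8 h (adjusted p = 0.0476). The block called 31.9% of all features at 8 h and 39.0% at 10 h, and raised the calls from 1388 to 2820 (8h-2h against 10h), from 1478 to 3183 (8h-2h against 8h) and from 3597 to 6286 (8h-2h against 0h). Without the filter 36982 features were tested (36983 for 8h-2h against 10h). The calls over all of them were 2303 at 8 h, 3306 at 10 h, 333, 358 and 1069. With only the 2 groups and the filter kept the calls were 2766, 3981, 327, 325 and 1413. In each set the last 3 are 8h-2h against 10h, 8h and 0h. Leaving out single arrays gave 2268 to 4268, 3169 to 5863, 369 to 958, 389 to 1062 and 1193 to 2649 in that order.

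A change of sign was seen in 36 values, of which 0 were called. With median centring these were Ezh2 (0.013) and Aebp2 (0.025) at 10 h, Phf19 after PD0325901 against 10 h (-0.029), and Ezh2 (0.034), Mtf2 (0.032) and Aebp2 (0.064) after PD0325901 against untreated cells. With quantile normalization they were Ezh2 between 8h and 10h (-0.014), and Ezh1 against 10 h (0.06) and Rbbp4 against 8 h (0.037) after PD0325901. With normexp they were Aebp2 between 8h and 10h (-0.024), Rbbp4 against 8 h (0.004) and Mtf2 against untreated cells (0.031). With the mean of a gene's probes they were Rbbp4 at 8 h (-0.22), at 10 h (-0.16) and after PD0325901 against 10 h (0.015), 8 h (0.073) and untreated cells (-0.15), Mtf2 at 10 h (-0.024) and between 8h and 10h (-0.026), and Phf1 after PD0325901 against untreated cells (0.19). With 1 array left out, the values that changed sign ranged, between 8h and 10h, as follows for Eed (-0.219 to 0.03), Ezh2 (-0.111 to 0.125) and Phf1 (-0.044 to 0.317). After PD0325901 they were Ezh1 (-0.156 to 0.053), Ezh2 (-0.033 to 0.227), Phf19 (-0.046 to 0.141) and Phf1 (-0.097 to 0.264) against 10 h, Ezh2 (-0.026 to 0.235) against 8 h, and Rbbp4 (-0.022 to 0.125), Aebp2 (-0.125 to 0.029) and Ezh2 (-0.208 to 0.052) against untreated cells. The cause was not tested.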
